A study of Drosophila melanogaster and Drosophila virilis and Drosophila yakuba with 44 samples.

Results

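Small RNAs silence genes in Drosophila through a pair of related pathways. In the microRNA (miRNA) pathway, primary transcripts are cut in the nucleus by drosha with its RNA-binding partner pasha, the resulting hairpins are cut in the cytoplasm by Dcr-1 with loqs, and most mature miRNAs are loaded into AGO1. In the small interfering RNA (siRNA) pathway, long double-stranded RNA is cut by Dcr-2, r2d2 acts with Dcr-2 in loading the products into AGO2, and AGO2 slices its targets, which serves defence against viruses and transposons. The partition is not strict, since loqs is spliced into isoforms of which some act with Dcr-2, and some miRNA strands are sorted into AGO2.

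The 8 genes AGO1, AGO2, Dcr-1, Dcr-2, loqs, r2d2, drosha and pasha were selected by name from the 13458 genes of the D. melanogaster count tables, and all 8 were present. The 3′-seq table, in which each read marks the 3′ end of a polyadenylated RNA, holds 23 libraries, with 1 library per condition. They comprise 10 cultured cell lines (gm2, mbn2, cmel1, BG3, mldmd16_c3, Dmd4, Dmd32, Dmd20, OSS and S2R+), 7 adult samples (Testis, Ovary, Female Head, Carcass Female, Carcass Male, and Whole body female and Whole body Male at 2-5 d) and 6 embryo collections covering 0-45 min, 45-90 min and 90 min to 6 h, and then windows that end at 12, 18 and 24 h. Total RNA-seq was made for Female Head, Ovary and Testis. The labels name no genotype or treatment, no age for the dissected tissues and carcasses and no second 3′-seq library of any condition, so no condition has a replicate, the intervals given here cover counting error only, and a p-value across cell lines or tissues measures the spread among unlike samples. Per the study's methods, the dissected tissues and carcasses came from flies of the same age as the whole flies, Female Head, Ovary and Testis were from the strain Canton S, and the carcasses lacked the head and the gonads. Values are reads per 1000000 counted reads (RPM) after trimmed mean of M-values (TMM) scaling.

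The 3′-seq libraries of the lines held between 477958 (BG3) and 9793900 counted reads, those of adults between 1519235 and 15693295, and those of embryos between 2426014 and 5546261, except for the 45-90 min collection with 42379 reads. There 3 reads, the limit that a count of 0 allows, correspond to 35.8 RPM, and no gene of the pathway had more than 8 reads, so this collection was left out of orders, ranges and ratios unless stated. The testis list (aly, can, Mst87F, dj and fzo) summed to 9747 RPM in Testis and to at most 18.3 RPM in the lines, with fzo at 0 in every library, and the photoreceptor list summed to 24080 RPM in Female Head. Some markers went against the labels. Whole body Male held 596 RPM of the ovary germline list (osk, nos, vas, orb and bam), with 335 RPM of osk, against 1.70 RPM of osk in Testis and 1.63 RPM in Carcass Male. Testis held 233 RPM of the accessory gland markers SP and Acp26Aa. The OSS line, derived from somatic cells of the ovary, held 622 RPM of the follicle cell gene tj, against 96.7 RPM in Ovary. Of the other follicle cell markers, Fas3 had 349.5 RPM in OSS, against 67.9 RPM in Ovary, but Yp1 had 8.81 RPM, against 1910 RPM. OSS also held 19070 RPM of the synaptic gene Snap25, against 698 RPM in Female Head. The other mature neuron markers lay in OSS between 2.06 RPM (nSyb) and 42.0 RPM (elav). The part of these RNAs in the values of Whole body Male, Testis and OSS was not tested. Whole body female lay outside the levels of Ovary, Carcass Female and Female Head for some of the 8 genes, as given below.

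The genes lie apart on the large autosomes (dm6, positions from the Ensembl annotation). AGO1 spans 2R 13943387 to 13958089 on the minus strand, Dcr-2 spans 2R 17574979 to 17581525 on the minus strand and drosha spans 2R 7932429 to 7936840 on the plus strand. On 2L, loqs spans 13382652 to 13385671 and r2d2 spans 7800147 to 7802098, both on the plus strand. AGO2 spans 3L 15554113 to 15561042 on the plus strand, and on 3R, Dcr-1 spans 22734007 to 22741091 on the minus strand and pasha spans 31617977 to 31622217 on the plus strand. At their 3′ ends, where 3′-seq reads fall, AGO2 shares 317 exonic bp with CG7739 and r2d2 shares 431 exonic bp with Cdc14, each on the opposite strand, and pasha shares 82 bp with kek6 on the same strand. Whether counting used strand is not given in the sources used here, so reads in these stretches may be divided or lost, and the levels of AGO2, r2d2 and pasha carry this uncertainty. AGO1, loqs and Dcr-2 have opposite-strand neighbours elsewhere or over 1 bp, while Dcr-1 and drosha overlap no annotated gene.

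All 8 genes were transcribed widely. Over the 22 libraries without the 45-90 min collection, 7 of them had reads everywhere, and Dcr-1 had none in Whole body female and the 90 min to 6 h embryos. Median levels in 3′-seq were 415 RPM for AGO1 and 91.7 RPM for AGO2, followed by 32.5 RPM for r2d2, 31.9 RPM for drosha, 29.5 RPM for loqs, 19.8 RPM for pasha, 16.2 RPM for Dcr-2 and 3.57 RPM for Dcr-1. The standard deviation of log2(RPM + 1) over these libraries lay between 0.593 (AGO2) and 1.17 (Dcr-1), below the median of 1.47 for the 9924 genes with a mean of at least 5 RPM in 8 of 8 cases. AGO2 was the steadiest, with 2.72% of those genes varying less, and Dcr-1, with few reads, the least steady, with 36.2% varying less. In bulk samples such as these, a lower level can stem from fewer expressing cells or from less RNA per cell, which cannot be told apart.

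**Figure D1:**
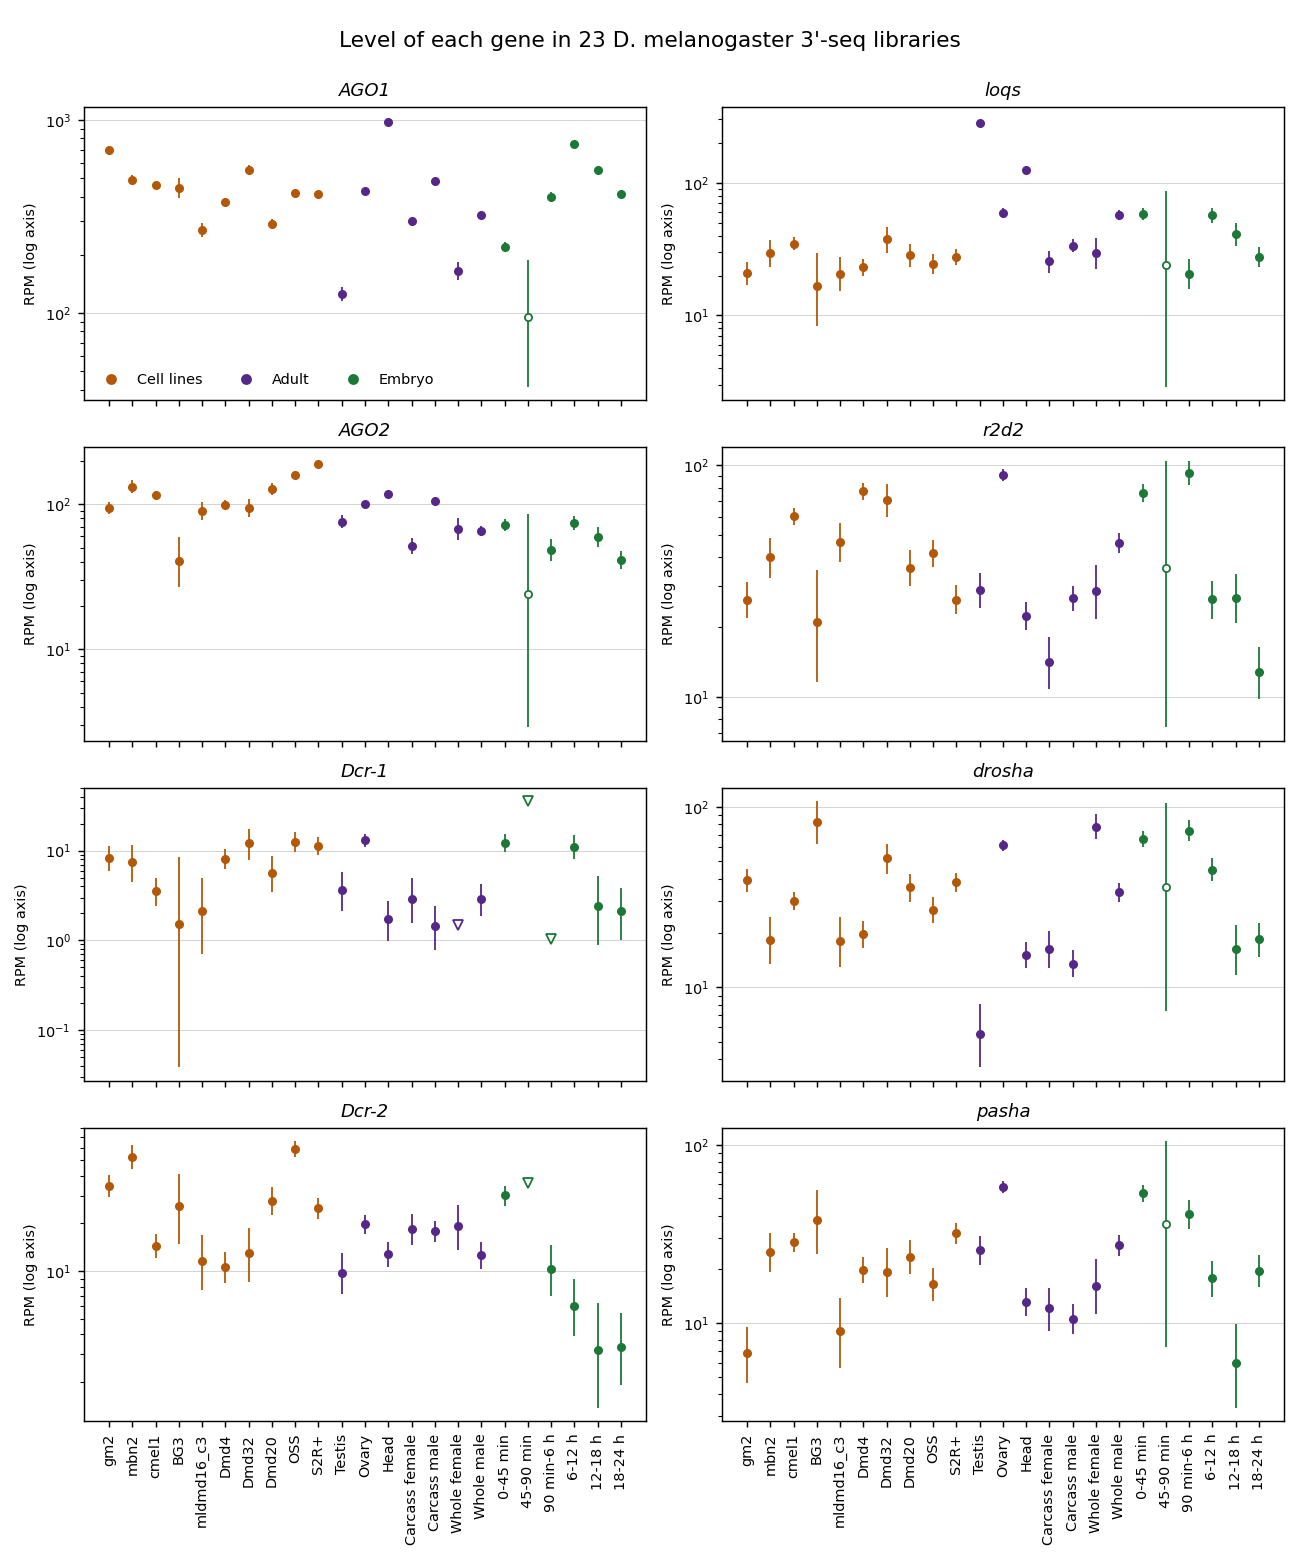
RPM on a log axis of each of the 8 genes in each of the 23 3′-seq libraries, with cell lines on the left, adult samples in the middle and embryos on the right; points are single libraries, bars are exact 95% Poisson intervals, open circles mark the 45-90 min embryos and open triangles mark the limit of 3 reads where no read was counted. The highest points are loqs in Testis at 280 RPM and AGO1 in Female Head at 973 RPM within their panels, and drosha is lowest in Testis at 5.51 RPM.

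The first cut of miRNA precursors depends on drosha, a nuclear RNase III, and pasha, its double-stranded RNA-binding partner. drosha was highest in BG3 at 82.9 RPM (95% interval 62.5 to 108, 55 reads), Whole body female at 77.8 RPM and the 90 min to 6 h embryos at 73.9 RPM, whose intervals overlapped. It was lowest in Testis at 5.51 RPM (3.60 to 8.08, 26 reads), a 15-fold range that became 38.6-fold with library totals in place of TMM, and no other library's interval reached down to that of Testis. In the other adult samples it stood at 61.2 RPM in Ovary, 33.6 RPM in Whole body Male, 16.3 RPM in Carcass Female, 15.2 RPM in Female Head and 13.6 RPM in Carcass Male. Whole body female thus lay above Ovary, Carcass Female and Female Head, parts of the female body, and the cause was not tested. All 10 lines, which ranged between 18.1 and 82.9 RPM with a median of 33.0 RPM, lay above the adult median of 16.3 RPM, yet 3 of 7 adult samples lay above the median of the lines. One of these 3 was Whole body Male, which held the ovary germline markers given above. Without it the adult median was 15.8 RPM, all 10 lines still lay above it, and 2 of 6 adult samples lay above the median of the lines.

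pasha was highest in Ovary at 58.1 RPM (53.8 to 62.7, 660 reads) and the 0-45 min embryos at 53.5 RPM, which did not differ beyond counting error. It was lowest in the 12-18 h embryos at 5.99 RPM (3.35 to 9.88, 15 reads) and in gm2 at 6.78 RPM (4.64 to 9.57, 32 reads). Each step down its order of 22 levels was within the counting error of the neighbours. Ovary also stood at the top of the adult levels for Dcr-1 and r2d2, described below.

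Within a library, reads of the partners can be set against each other without any scaling between libraries. drosha made up 17.7% of the reads of the pair in Testis (Clopper-Pearson 95% interval 11.9 to 24.8%, 26 and 121 reads), a share whose interval was separate from that of each of the other 21 libraries. The share was 85.3% in gm2 (79.9 to 89.7%) and 82.7% in Whole body female (76.6 to 87.8%), the highest values, and 51.3% in Ovary (48.6 to 54.0%). Outside these extremes it lay between 42.3% (mbn2) and 73.2% (12-18 h embryos). Whole body female held 4.79 drosha reads for each pasha read, against 1.05 in Ovary, 1.35 in Carcass Female and 1.15 in Female Head. Its ratio thus lay above that of each of these parts of the female body, and the cause was not tested.

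Dcr-1, the Dicer of the miRNA pathway, was the gene with the fewest reads, 718 over the 23 libraries. Its highest levels were 13.0 RPM in Ovary (11.0 to 15.3, 148 reads), 12.6 RPM in OSS (9.74 to 16.0), 12.1 RPM in the 0-45 min embryos and 12.0 RPM in Dmd32, which did not differ beyond counting error. The other adult samples lay far below Ovary, at 3.60 RPM in Testis, 2.91 RPM in Carcass Female, 2.88 RPM in Whole body Male, 1.71 RPM in Female Head and 1.43 RPM in Carcass Male. In Whole body female, 0 of 1519235 reads allow up to 1.48 RPM, and in the 90 min to 6 h embryos 0 of 2426014 reads allow up to 1.03 RPM. The 0-45 min and 6-12 h embryos had 76 and 46 reads of Dcr-1.

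loqs, the double-stranded RNA-binding partner of Dcr-1, was highest in Testis at 280 RPM (265 to 295, 1320 reads), with Female Head next at 126 RPM (118 to 133, 1176 reads), and the intervals of both were separate from each other and from all other libraries. Ovary at 59.5 RPM, the 0-45 min embryos at 58.1 RPM, Whole body Male at 57.2 RPM and the 6-12 h embryos at 57.0 RPM formed the next group and did not differ beyond counting error. The lines were uniform and low, at 37.4 RPM in Dmd32, 34.7 RPM in cmel1, 29.4 RPM in mbn2, 28.4 RPM in Dmd20, 27.6 RPM in S2R+, 24.4 RPM in OSS, 23.0 RPM in Dmd4, 20.8 RPM in gm2, 20.6 RPM in mldmd16_c3 and 16.6 RPM in BG3. All 10 lines lay below the adult median of 57.2 RPM, and 4 of 7 adult samples lay above every line, while Carcass Female at 25.5 RPM, Whole body female at 29.5 RPM and Carcass Male at 33.6 RPM lay among them. Without Whole body Male the adult median was 46.6 RPM, and 3 of 6 adult samples lay above every line. The 16.9-fold range of loqs, with BG3 lowest, became 8.90-fold with library totals.

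Dcr-2, the Dicer of the siRNA pathway, was highest in OSS at 59.1 RPM (52.7 to 66.0, 315 reads) and mbn2 at 52.5 RPM (44.0 to 62.2, 134 reads), and the order broke after them. Next came gm2 at 34.5 RPM, the 0-45 min embryos at 30.0 RPM and Dmd20 at 27.9 RPM. Adults varied little, between 9.75 RPM in Testis and 19.7 RPM in Ovary, with a mean of 15.8 ± 3.96 RPM (SD, n = 7 unlike samples). The lowest levels were in late embryos, 3.20 RPM at 12-18 h (8 reads) and 3.36 RPM at 18-24 h (16 reads), giving an 18.5-fold range.

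r2d2, which acts with Dcr-2 in loading siRNAs, was highest in the 90 min to 6 h embryos at 92.8 RPM (82.1 to 105, 270 reads) and in Ovary at 90.6 RPM (85.1 to 96.3, 1029 reads), whose intervals overlapped. Dmd4 at 77.4 RPM, the 0-45 min embryos at 75.7 RPM and Dmd32 at 70.7 RPM followed. Its lowest levels were 12.8 RPM in the 18-24 h embryos and 14.1 RPM in Carcass Female. Female Head held 22.4 RPM and Testis 28.8 RPM, so the places of highest loqs were not places of high r2d2.

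loqs made up 90.7% of loqs and r2d2 reads in Testis (89.0 to 92.1%) and 84.8% in Female Head (82.9 to 86.7%), against 39.6% in Ovary (37.3 to 42.0%). In the other adult samples it made up between 50.8% (Whole body female) and 64.4% (Carcass Female). In 9 of 10 lines r2d2 had more reads than loqs, and the share of loqs lay between 22.9% in Dmd4 (19.9 to 26.2%) and 51.2% in S2R+ (46.0 to 56.3%), so that 6 of 7 adult samples and 1 of 10 lines had more loqs than r2d2 reads. The lowest share of all was 18.2% (14.2 to 22.8%) in the 90 min to 6 h embryos.

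AGO1, the main miRNA effector, was highest in Female Head at 973 RPM (953 to 993, 9112 reads), separate from the next levels of 750 RPM in the 6-12 h embryos and 699 RPM in gm2. It was lowest in Testis at 125 RPM (115 to 136, 590 reads), Whole body female at 165 RPM and the 0-45 min embryos at 220 RPM, which were also separate from each other. The 10 lines spanned between 268 RPM (mldmd16_c3) and 699 RPM (gm2) with a mean of 440 ± 125 RPM (SD, n = 10), and the adult samples had a like mean and a wider spread, 400 ± 284 RPM (SD, n = 7). Ovary at 429 RPM stood amid the lines.

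AGO2, the siRNA effector, was highest in the lines S2R+ at 190 RPM (180 to 200, 1347 reads) and OSS at 159 RPM (149 to 170, 848 reads), each separate from the next level. mbn2 held 133 RPM, Dmd20 127 RPM, cmel1 115 RPM, Dmd4 99.6 RPM, Dmd32 94.8 RPM, gm2 93.6 RPM and mldmd16_c3 89.8 RPM. BG3, the shallowest line, had 40.7 RPM (26.8 to 59.2, 27 reads), which overlapped the 41.3 RPM of the 18-24 h embryos. With library totals in place of TMM BG3 stood at 56.5, and the lowest of the 22 libraries was Carcass Female at 34.4, both in reads per 1000000 counted reads. Adult levels were between 51.5 RPM in Carcass Female and 117 RPM in Female Head, and embryo levels between 41.3 RPM at 18-24 h and 74.7 RPM at 6-12 h, so that 5 of 5 collections lay below the median of the lines, 108 RPM.

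AGO1 had more 3′-seq reads than AGO2 in all 23 libraries. Its share of the reads of both was lowest in Testis at 62.3% (59.1 to 65.4%), S2R+ at 68.4% (67.0 to 69.8%) and Dmd20 at 69.3% (66.9 to 71.7%). It was highest in BG3 at 91.6% (88.0 to 94.4%) and the 6-12 h and 18-24 h embryos, both at 90.9%, and was 89.3% in Female Head (88.6 to 89.8%). The ratio of the genes therefore varied between 1.65 in Testis and 10.9 in BG3. For the Dicers, Dcr-2 had more reads than Dcr-1 in all 10 lines and all 7 adult samples, and the 6-12 h embryos were the only collection with more Dcr-1, at 64.8% of the reads (52.5 to 75.8%, 46 and 25 reads).

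**Figure D2:**
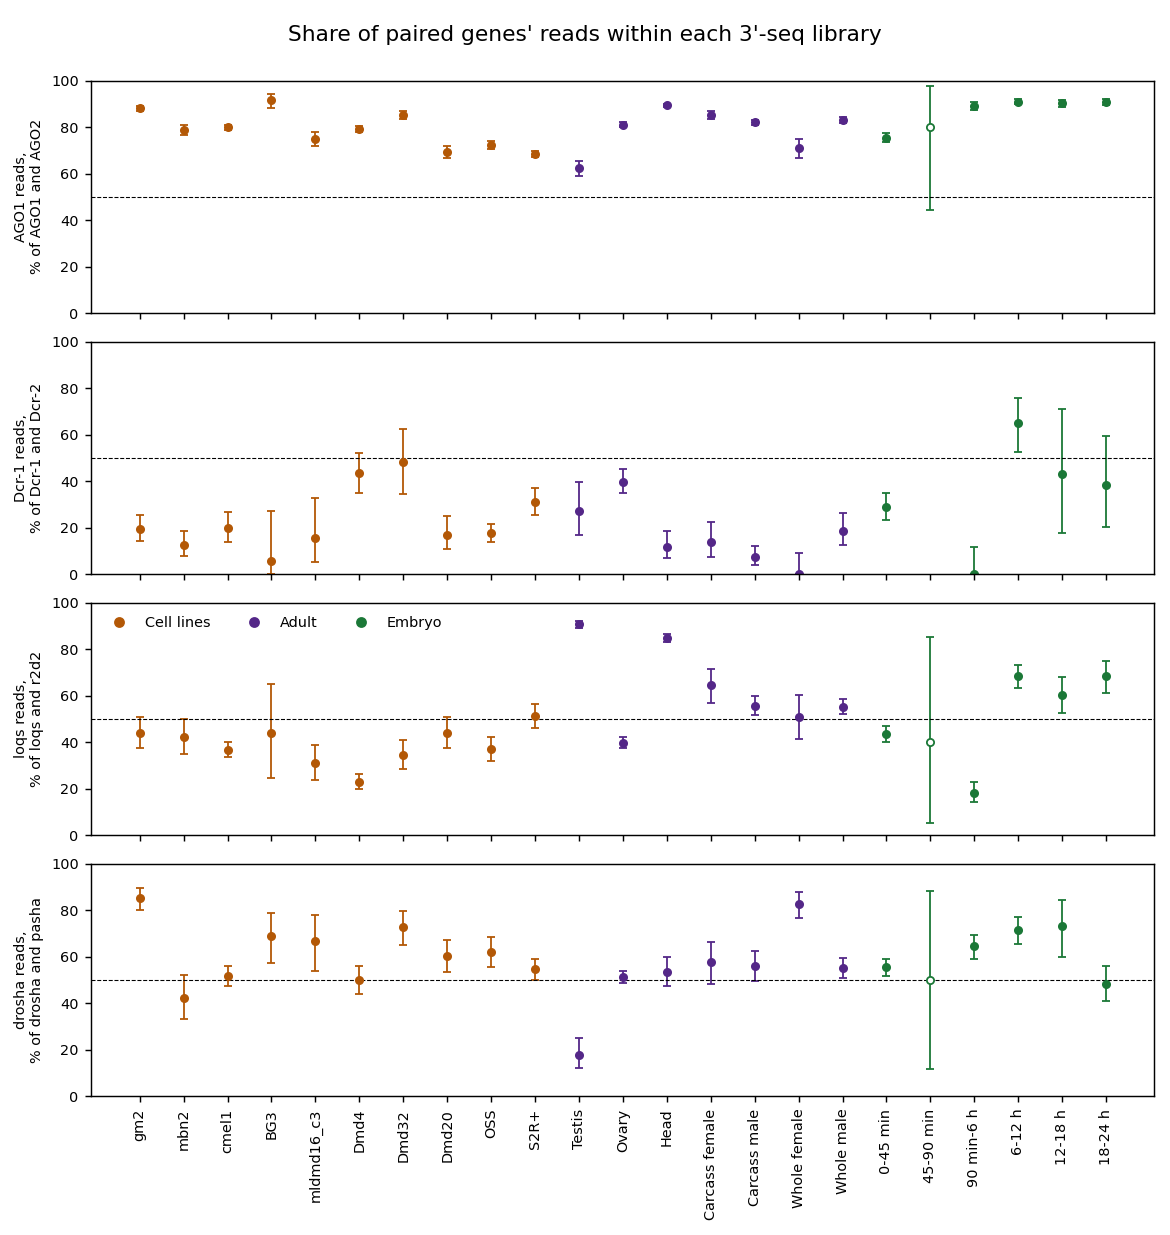
Reads of the first gene as a percentage of the reads of both genes of a pair (AGO1 and AGO2, Dcr-1 and Dcr-2, loqs and r2d2, drosha and pasha) in each 3′-seq library, cell lines on the left, adult samples in the middle and embryos on the right; bars are Clopper-Pearson 95% intervals, the dashed line marks 50%, and open circles mark the 45-90 min embryos. Testis stands alone in the lowest panel at 17.7% drosha, and loqs reaches 90.7% there and 84.8% in Female Head while 9 of 10 lines lie under the dashed line.

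Read counts of different genes also carry differences in how well each gene's 3′ end is captured, so the assays were set side by side. In total RNA-seq, after division by exonic length, AGO1 stood below AGO2 in each tissue: 8.94 against 42.1 RPM per kb in Testis, 50.9 against 70.3 RPM per kb in Female Head and 27.9 against 54.7 RPM per kb in Ovary. Relative to its RNA-seq level per kb, AGO1 was at the 94.4th to 98th percentile of all genes in 3′-seq, whereas Dcr-1 was at the 3.7th to 9.7th and Dcr-2 at the 5.35th to 9.12th. Before division by length, RNA-seq put AGO1 above AGO2 in Female Head (421 and 291.5 RPM) and at a like level in Ovary (231 and 227 RPM). In Testis it put AGO1 below AGO2 (74.0 and 174.5 RPM). The order of AGO1 and AGO2 thus rests on the assay and on the lengths used. The orders and shares given for different genes describe 3′-seq reads, not transcript abundance. Dcr-2 exceeded Dcr-1 in both assays, at 20.0 against 8.65 RPM per kb in Testis, 21.9 against 4.44 in Female Head and 24.2 against 15.4 in Ovary.

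Differences between tissues had the same sign in 3′-seq and RNA-seq for all 8 genes in each of 3 contrasts. Among all genes that reached 1 RPM in every library of a contrast, the share with the same sign was 93.0% for Testis against Ovary, 94.6% for Female Head against Ovary and 91.7% for Testis against Female Head. Both assays were made from the same RNA, so this is no check in independent samples. The sizes differed more: for 11 of the 16 differences of Testis or Female Head from Ovary, the RNA-seq value lay outside the counting error of 3′-seq. That error is small for genes with many reads, and the share over all genes was not computed. In Testis, for one, the RNA-seq level of Dcr-2 was 0.827 of that in Ovary, against 0.494 by 3′-seq, and for Dcr-1 the values were 0.563 by RNA-seq, against 0.277 by 3′-seq. loqs was the only gene of the 8 that was higher in Testis than in Ovary, 4.70-fold in 3′-seq (280 and 59.5 RPM) and 6.57-fold in RNA-seq (351 and 53.4 RPM). drosha showed the greatest fall in the same contrast, to 0.0901 of the Ovary level in 3′-seq (5.51 and 61.2 RPM) and 0.150 in RNA-seq (10.5 and 70.2 RPM). The median log2 difference of all genes was -0.85 for Testis against Ovary and -0.91 for Female Head against Ovary in 3′-seq, beside which AGO2 had -0.40 and Dcr-2 -1.02 for Testis. In RNA-seq, AGO2 had -0.38 and Dcr-2 -0.27. All 24 differences kept their sign with library totals in place of TMM.

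Female Head against Ovary divided the genes in another way, with AGO1 and AGO2 as well as loqs above the Ovary level. AGO1 was 2.27-fold higher in 3′-seq (973 and 429 RPM) and 1.82-fold in RNA-seq (421 and 231 RPM). loqs was 2.11-fold higher in 3′-seq and 1.48-fold in RNA-seq, and AGO2 1.17-fold and 1.29-fold higher. r2d2 and drosha each stood at 0.248 of the Ovary level in 3′-seq and 0.274 in RNA-seq, pasha at 0.226 and 0.302, and Dcr-1 at 0.131 and 0.289. Dcr-2 changed least among the genes lower in Female Head, at 0.650 in 3′-seq and 0.904 in RNA-seq. With 1 library per tissue and assay, none of these differences has a replicate check.

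**Figure D3:**
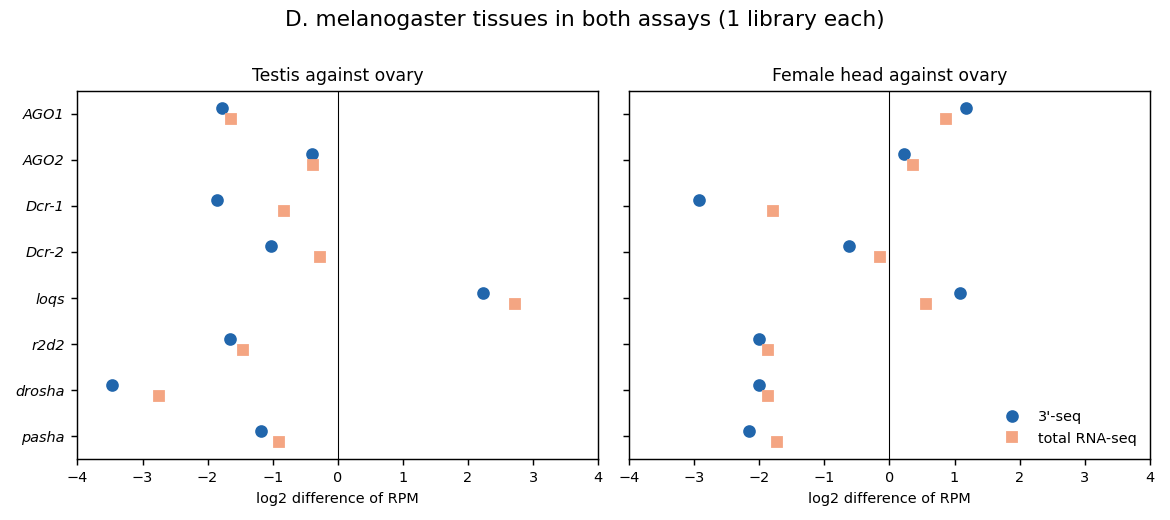
log2 difference of RPM between tissues for the 8 genes, Testis against Ovary on the left and Female Head against Ovary on the right, in 3′-seq (circles) and total RNA-seq (squares), 1 library for each tissue and assay. loqs alone lies above 0 for Testis, at 2.23 and 2.72, and both assays put every gene on the same side of 0.

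Embryo collections ran in time and showed 3 kinds of course. r2d2, drosha and pasha were high at the start and low at the end: r2d2 had 75.7 RPM at 0-45 min, 92.8 RPM at 90 min to 6 h, 26.3 RPM at 6-12 h, 26.8 RPM at 12-18 h and 12.8 RPM at 18-24 h. drosha had 66.5, 73.9, 44.9, 16.4 and 18.5 RPM in the same windows, and pasha had 53.5, 40.9, 17.9, 5.99 and 19.7 RPM. Dcr-2 had 30.0, 10.3, 6.04, 3.20 and 3.36 RPM, so that its 18-24 h level was 0.112 of that at 0-45 min. The intervals of the first and last windows were separate for all 8 genes, and the later level was lower for each gene except AGO1. The share of all genes that changed in this way was not computed, so these counts cannot be read as particular to the 8 genes. Among the other genes, the 18-24 h level was 0.173 of that at 0-45 min for Dcr-1, 0.476 for loqs and 0.576 for AGO2. For AGO1 it was 1.88-fold higher. With library totals in place of TMM it was 0.346 of the 0-45 min level for loqs, 0.419 for AGO2 and 1.37-fold for AGO1.

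AGO1 took the opposite early course, with 220 RPM at 0-45 min, 398 RPM at 90 min to 6 h, 750 RPM at 6-12 h, 548 RPM at 12-18 h and 415 RPM at 18-24 h, each separate from its neighbour in time. The 6-12 h level was 3.40-fold that of 0-45 min. loqs dipped and recovered, with 58.1, 20.6, 57.0, 40.7 and 27.7 RPM over the same windows, the 6-12 h level being 2.76-fold that of 90 min to 6 h and within the counting error of that of 0-45 min. AGO2 varied less, with 71.7, 48.5, 74.7, 59.5 and 41.3 RPM. Dcr-1 had 12.1, 0, 11.1, 2.40 and 2.10 RPM, resting on 76, 0, 46, 6 and 10 reads.

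The partner shares moved with these courses. AGO1 made up 75.5% of AGO1 and AGO2 reads at 0-45 min (73.4 to 77.4%) and between 89.1% and 90.9% in the 4 later windows. loqs made up 43.4% of loqs and r2d2 reads at 0-45 min, 18.2% at 90 min to 6 h, and between 60.4% and 68.4% thereafter. The summed ovary germline markers, maternally supplied to the egg, stood at 2263 RPM at 0-45 min, 96.3 RPM at 90 min to 6 h and between 7.19 and 43.0 RPM later. Muscle markers (Mhc and up) stood at 99.2 and 19.9 RPM in the first windows and at 632 to 7417 RPM from 6-12 h on. Mature neuron markers (elav, nSyb, Syt1, brp and Snap25) stood at 25.9 RPM at 0-45 min, 138 RPM at 90 min to 6 h, 804 RPM at 6-12 h, 752 RPM at 12-18 h and 623 RPM at 18-24 h. Of the 6-12 h sum, elav held 726 RPM, while nSyb, Syt1, brp and Snap25 had 18.8, 13.3, 10.6 and 35.0 RPM. At 12-18 h elav was lower, at 266 RPM, and the others were higher, at 121, 158, 88.7 and 118 RPM. The part of all these markers in the courses was not tested.

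**Figure D4:**
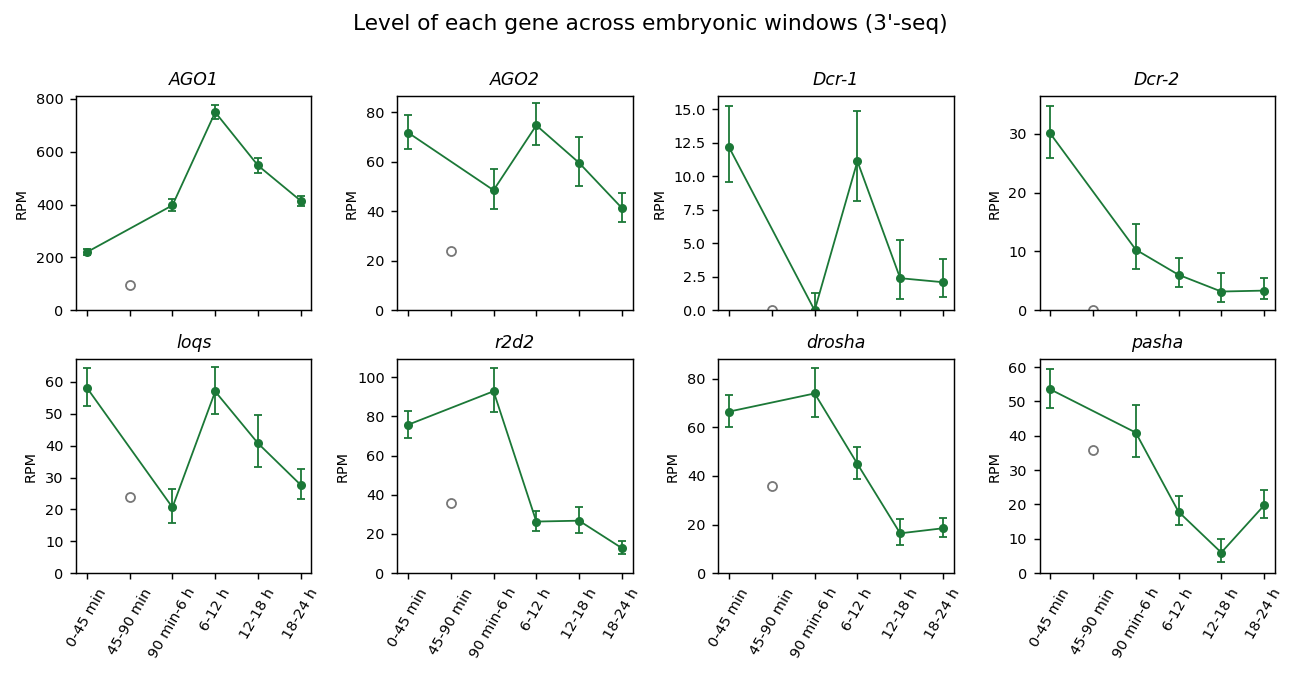
RPM of each gene in the embryo collections in order of time, with exact 95% Poisson intervals and 1 library per window; the open circle is the 45-90 min collection of 42379 reads and is not joined. AGO1 peaks at 750 RPM at 6-12 h, Dcr-2 is highest at 30.0 RPM at 0-45 min, and loqs has its lowest level, 20.6 RPM, at 90 min to 6 h.

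Whether cultured lines differ from animals as a class was tested with edgeR's quasi-likelihood test over all 23 libraries, with p-values adjusted by Benjamini-Hochberg over the 9118 genes that passed the filter on low counts, all 8 genes included. The spread within a class is that among unlike lines, tissues or stages. Against the adult samples, 0 of the 8 genes were called higher in the lines and 1, loqs, was lower. Across all genes, 4.89% were called higher and 19.1% lower in the lines. The count of 1 of 8 lower is thus near the background, and the median log2 fold change of the 8 genes was 0.28, beside -0.33 for all genes tested.

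loqs averaged 26.3 ± 6.51 RPM in the lines (SD, n = 10) and 87.3 ± 91.5 RPM in the adult samples (SD, n = 7), and its log2 fold change was -1.84 (SE 0.42, 95% interval -2.72 to -0.97, edgeR adjusted p = 0.00295). The call rested on the tissues with the highest levels. Without Testis the log2 fold change was -0.97 (edgeR adjusted p = 0.0322), and without Testis and Female Head, a choice made after seeing the data, it was -0.63 (edgeR adjusted p = 0.157). Without Whole body Male, whose ovary germline markers are given above, it was -1.82 (edgeR adjusted p = 0.00486). The other 7 genes were not called, with log2 fold changes of 1.09 for Dcr-1 (-0.53 to 2.71), 0.70 for Dcr-2 (-0.32 to 1.71), 0.36 for AGO2 (-0.19 to 0.92), 0.34 for r2d2 (-0.41 to 1.10), 0.21 for drosha (-0.75 to 1.18), 0.10 for AGO1 (-0.71 to 0.91) and -0.04 for pasha (-0.87 to 0.80). Library totals in place of TMM moved the median of all genes by 0.46, and AGO2 was then called higher, at 0.85 (edgeR adjusted p = 0.0382), a value to be read against that shift.

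Against the embryos, 1 of the 8 genes, AGO2, was called higher in the lines and 0 were called lower. Across all genes, 3.73% were called higher and 8.81% lower. The median log2 fold change of the 8 genes was -0.06, beside -0.13 for all genes tested. AGO2 averaged 114 ± 41.1 RPM in the lines (SD, n = 10) and 53.3 ± 19.3 RPM in the embryos (SD, n = 6, of which the 45-90 min collection had 2 reads), with a log2 fold change of 0.93 (SE 0.29, 95% interval 0.33 to 1.53, edgeR adjusted p = 0.0373). The call was near the threshold: leaving out Dmd20, OSS, S2R+ or the collections of 45-90 min, 90 min to 6 h or 18-24 h in turn put the edgeR adjusted p between 0.0530 and 0.0734, with a log2 fold change of 0.81 to 0.91.

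Dcr-2 had a larger difference from the embryos, 1.57 (SE 0.55, 0.44 to 2.69), with an edgeR adjusted p of 0.0609 that did not pass. All 10 lines, between 10.6 and 59.1 RPM, lay above 6.04 RPM, the median of the 5 collections without that of 45-90 min, and 4 of these 5 lay below every line. The exception was the 0-45 min collection at 30.0 RPM, and without it the log2 fold change was 2.25 (edgeR adjusted p = 0.0111). The remaining log2 fold changes were 0.49 for Dcr-1, -0.05 for AGO1, -0.06 for r2d2, -0.25 for drosha, -0.42 for pasha and -0.66 for loqs, none of them called. The 2 comparisons share the cell line libraries.

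**Figure D5:**
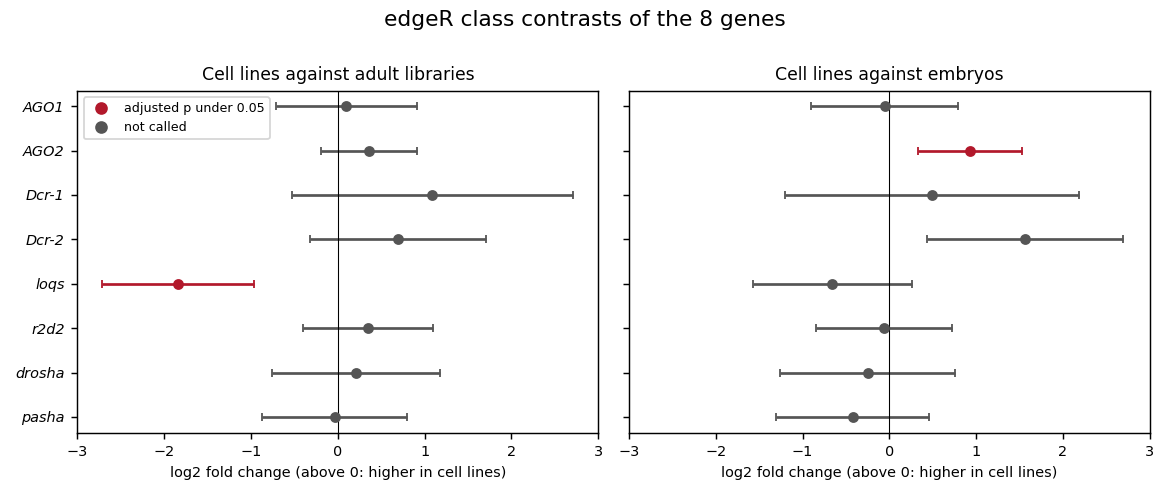
log2 fold change of the 8 genes between cell lines and adult samples (left) and between cell lines and embryos (right), values above 0 being higher in cell lines, with 95% intervals from edgeR's quasi-likelihood fit over 23 libraries; red points have an adjusted p under 0.05. Red points are loqs at -1.84 on the left and AGO2 at 0.93 on the right.

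The wider set of silencing factors was read from 25 listed genes that act beside the 8, such as cofactors of the effector complexes, deadenylases, chaperones for Argonaute loading and nuclear cap factors, of which all 25 were tested. Against adult samples, 0 of 25 were called higher and 4 of 25 lower in the lines, beside 4.89% and 19.1% of all genes, so neither count exceeds the background. Their median log2 fold change was 0.06, beside -0.33 for all genes tested. The 4 were twin, a catalytic deadenylase, at -2.66 (edgeR adjusted p = 0.00545), me31B, an RNA helicase of cytoplasmic RNA granules, at -2.19 (0.00940), Pop2, a deadenylase partner of twin, at -1.51 (0.0480), and Droj2, a DnaJ co-chaperone, at -1.22 (0.00221). Against embryos, 1 was called higher, blanks, a double-stranded RNA-binding protein, at 6.47 (edgeR adjusted p = 0.0433), and 1 lower, me31B at -2.17 (0.0212), beside 3.73% and 8.81% of all genes, counts near or under the background. gw, the partner of AGO1 in miRNA silencing, was not called in either comparison, at -0.51 against adults and -0.53 against embryos. me31B averaged 111 RPM in the lines, 561 RPM in adult samples and 521 RPM in embryos.

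The PIWI clade Argonautes (piwi, aub and AGO3), which act with another class of small RNA in the gonad, were read beside AGO1 and AGO2. piwi had 419 RPM in OSS and 111 RPM in Ovary, and at most 14.2 RPM in the other 9 lines. AGO3 had 447 RPM in Ovary, 437 RPM in the 0-45 min embryos and 13.7 RPM in Female Head. In the lines it ranged between 47.1 RPM (S2R+) and 212 RPM (Dmd32), which overlapped the range of AGO2 there. aub ranged between 0.221 RPM (cmel1) and 39.25 RPM (S2R+) in the lines, beside 35.75 RPM in Ovary. None of the 3 was called in either class comparison. Their log2 fold changes lay between 0.07 and 0.82 against adult samples and between -0.50 and 1.14 against embryos.

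The genes did not share one pattern. Over the 22 libraries, Pearson's r of log2(RPM + 1) between the 28 pairs of the 8 genes was highest for AGO2 and Dcr-1 at 0.55, AGO2 and Dcr-2 at 0.53, r2d2 and pasha at 0.49 and drosha and pasha at 0.48, and lowest for loqs and drosha at -0.42. Other pairs of like role had 0.34 for Dcr-1 and Dcr-2, 0.19 for AGO1 and AGO2 and -0.01 for loqs and r2d2. These values describe 22 unlike libraries, which share depth and scaling across genes, and the counting error of Dcr-1 limits its values.

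Among the 9923 other genes with a mean of at least 5 RPM, those most like each of the 8 in pattern were found by the same measure. For loqs they were CG10077, with an r of 0.93 over the 22 libraries, CG5653 at 0.84 and CG16782 at 0.84. drosha was most like CG14803 at 0.86, Dok at 0.83 and CG31365 at 0.82, and pasha was most like TfIIFbeta, a general transcription factor subunit, at 0.84, CG14749 at 0.84 and mTerf5 at 0.83. Dcr-1 was most like unc-45, a myosin chaperone, at 0.81, CG3065 at 0.81 and CG1749 at 0.78, and r2d2 was most like CG10494 at 0.83, Sas-4, a centriole protein, at 0.82 and Snr1, a chromatin remodelling subunit, at 0.82. Dcr-2 was most like mop at 0.81, rad50, a DNA repair protein, at 0.80 and CG7130 at 0.80. AGO1 was most like unk at 0.81, NFAT at 0.80 and Lar, a receptor phosphatase, at 0.79, and AGO2 was most like Cp1, a cysteine protease, at 0.86, Madm at 0.80 and CG8908 at 0.80.

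D. yakuba, a close relative of D. melanogaster, was sampled in the same 3 tissues and as embryos of 0-12 h and 12-24 h. Its tables name 3 of the 8 genes, AGO2, Dcr-2 and r2d2, and the D. virilis tables name 0, so the others were not analysed there. In D. yakuba 3′-seq, AGO2 had 254 RPM in Testis, 55.0 RPM in Female Head and 26.9 RPM in Ovary, that is 9.44-fold higher in Testis than in Ovary. In D. melanogaster it had 75.7 RPM in Testis, 117 RPM in Female Head and 99.8 RPM in Ovary, or 0.758 of the Ovary level in Testis. Total RNA-seq gave the same directions with a smaller difference in D. yakuba, 129 RPM in Testis and 77.2 RPM in Ovary, against 175 RPM in Testis and 227 RPM in Ovary of D. melanogaster. The species were scaled separately and have their own gene models, and with 1 library each the difference between them was not tested.

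r2d2 in D. yakuba had 33.8 RPM in Testis, 8.10 RPM in Female Head and 30.4 RPM in Ovary, a head level 0.267 of that of Ovary, near the 0.248 of D. melanogaster. In both species r2d2 was thus low in Female Head and higher in Ovary. Dcr-2 in D. yakuba 3′-seq had 32.6 RPM in Testis, 27.0 RPM in Female Head and 32.8 RPM in Ovary, and in RNA-seq it had 129 RPM in Testis, 70.8 RPM in Female Head and 120 RPM in Ovary. Female Head thus stood at 0.822 of the Ovary level in 3′-seq and 0.588 in RNA-seq. In the 0-12 h embryos of D. yakuba, AGO2 had 11.4 RPM, while Dcr-2 and r2d2 had 0 of 2264432 reads, which allows up to 1.03 RPM. At 12-24 h, AGO2 had 15.2 RPM, r2d2 9.41 RPM and Dcr-2 2.01 RPM.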

How the data were processed

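RPM values and tests were computed from the authors' deposited counts per gene, made on dm6 and dyak3 with the authors' gene models and their extended 3′ UTRs. Per the labels, the submitters' processing notes name Trimmomatic 0.36 and HISAT2, and the study's methods name featureCounts; counting options are not given in the sources used here. The 8 genes and all gene lists were chosen with earlier results of these data known. The named genes are the 8, the listed factors past the threshold (up to 6 per comparison) and the 3 genes most like each of the 8; gw and Snap25 were named after their values were seen, and the PIWI clade is a list of its own.

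Counts were scaled by TMM within each table (edgeR 4.0.16, R 4.3.3). Exact Poisson and Clopper-Pearson intervals at 95% and the limit of 3 reads for a count of 0 cover counting error only. PCR copies are not independent molecules. Cell lines were compared with adult samples and with embryos by edgeR's quasi-likelihood test, class being the only term, after edgeR's expression filter with a minimum count of 10, at an adjusted p of 0.05. TMM factors of the fit were computed on the filtered genes. The fit was tested on simulated data, where it called 98.5% of 200 genes changed 8-fold between lines and adult samples among 9084. The simulated counts had a smaller dispersion (spread beyond counting error) than the common value of 1.11 in the real fit. That share therefore does not measure the power of the class tests given here. Alternatives were DESeq2 1.42.0, limma-voom (limma 3.58.1), other scalings, no filter and left-out libraries. Exonic lengths come from the Ensembl annotation, not from the authors' models. Figures were drawn with matplotlib 3.10.9. Tests over the tissues of 3 species were not run, because the design joined the species by gene name, and the D. virilis tables name 0 of the 8 genes.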

Additional observations from a re-analysis of the deposited data

Results flagged for a closer look

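Of 24 groups examined (8 genes in cell lines, adult samples and embryos), 1 held a library far from the others by Dixon's criterion at the 95% level, applied to log2(RPM + 1). AGO2 in BG3, at 40.7 RPM, lay below the other 9 lines, which ranged between 89.8 and 190 RPM. BG3 is the shallowest line, with 27 reads of AGO2, and its interval of 26.8 to 59.2 RPM does not reach the next line. Chance flags about 1 group in 20.

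The difference between Testis and Ovary in 3′-seq had opposite signs in D. yakuba and D. melanogaster for 2 of the 3 genes named in both species, with 1 library per tissue and species and no test of the difference. The share of opposite signs among the other genes named in both species was not computed. For AGO2 the log2 difference was 3.24 in D. yakuba and -0.40 in D. melanogaster, and total RNA-seq gave the same signs, 0.75 in D. yakuba and -0.38 in D. melanogaster. For r2d2 it was 0.15 in D. yakuba and -1.65 in D. melanogaster, while total RNA-seq put both below 0, at -0.40 and -1.46. The D. yakuba 3′-seq levels of r2d2 in Testis (29.0 to 39.2 RPM) and Ovary (27.2 to 33.8 RPM) had overlapping intervals, so that sign is within counting error.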

How the results depend on the processing

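The call of loqs against adult samples held in each of 17 fits without 1 library and in 10 of 11 other fits, with log2 fold changes between -1.98 and -0.63, and was lost without Testis and Female Head. The 2 tallies share a fit, that without Testis against adult samples and that without the 45-90 min collection against embryos. Among the 11, those without Testis, without Testis and Female Head, and with libraries of at least 1000000 reads only were chosen after seeing the data. The call of AGO2 against embryos held in 10 of 16 fits without 1 library (0.81 to 1.05 over the 16) and in 8 of 11 others, and was lost with limma-voom (0.88, adjusted p = 0.0611), without the 45-90 min collection (0.81, adjusted p = 0.0734) and with embryos and lines alone (0.92, adjusted p = 0.0580). Dcr-2 against embryos passed in 2 of 11 other fits, with DESeq2 size factors in edgeR (1.61, adjusted p = 0.0496) and with DESeq2 (1.53, adjusted p = 0.0142), and in 1 of 16 fits without 1 library, that without the 0-45 min collection. The adjusted p of the remaining fits reached 0.322 (limma-voom, 1.17) and 0.136 (without 12-18 h). The cause was not tested.

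Genes that were not called changed sign near 0. Against adult samples, pasha took 0.27 with library totals, 0.0394 without whole flies and 0.12 without Testis, AGO1 took -0.003 with DESeq2 size factors, -0.00361 with DESeq2 and -0.0164 without whole flies, and drosha took -0.13 without Testis and Female Head and -0.0587 with libraries of at least 1000000 reads only. Against embryos, AGO1 took 0.13 with library totals and 0.12 without the filter, and r2d2 took 0.0404 with limma-voom. Without 1 library at a time, pasha against adult samples ranged between -0.12 and 0.28, and against embryos AGO1 ranged between -0.25 and 0.17 and r2d2 between -0.25 and 0.30.

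Counts over all genes moved more. Against adult samples, 446 genes were higher and 1740 lower in the lines (2186 in all), with 831 higher under library totals (40.7% of calls, against 20.4%), 3873 called and 3419 lower without the filter, and 1244 called and 746 lower with limma-voom. Against embryos, 340 were higher and 803 lower (1143 in all), with 620 higher in DESeq2, 428 called, 198 higher and 230 lower with limma-voom, and 739 called and 417 lower with the 2 classes alone. Fits without 1 library called between 1666 and 2261 genes against adult samples (336 to 616 higher, 1293 to 1699 lower) and between 843 and 1183 against embryos (236 to 345 higher, 541 to 915 lower). The higher share of calls was 40.0% with limma-voom against adult samples, and against embryos it was 29.7%, with 46.3% in limma-voom and 43.6% with the 2 classes alone.

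The median of the highest over the lowest level was 9.70-fold for the genes other than Dcr-1, which had no reads in some libraries. It was 11.8-fold with library totals, under which the highest library became gm2 for AGO1, OSS for AGO2 and Dcr-1, and the 0-45 min embryos for pasha. The lowest became Carcass Female for AGO2, loqs and r2d2 and the 18-24 h embryos for Dcr-2, and the range of single genes moved most for drosha (15-fold, and 38.6-fold with library totals) and loqs (16.9-fold and 8.90-fold). Of the 24 genes most alike in pattern, 8 recurred with Spearman's rank measure, 13 with all 23 libraries and 15 with library totals. Depth limits Dcr-1 most, with 718 reads over 23 libraries, and BG3 and the 45-90 min embryos among the libraries. No paired analysis was possible because the labels give no replicate numbers.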
